A study of Arabidopsis thaliana with 24 samples.

Results

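The comparison described here is that of *phot1* rosettes with wild-type rosettes, both harvested 30 min after a UV-C dose of 100 mJ cm-2. Its members were taken from the genotype, treatment, and replicate in the sample labels, which gives 6 of the 24 RNA-Seq libraries of the series: 3 of UV-C treated *phot1* and 3 of UV-C treated wild type. The mutant plants carried the *phot1* mutation, the wild-type plants did not, and both were in the Col-0 background with the *gl1* mutation, which removes leaf hairs. The same genotypes without UV-C, 3 libraries each, were used to see which differences were there before the treatment. UV-C treated *phot2* and *phot1phot2* plants were fitted in the same model and are used here for the number of calls and to place single genes. The plants were whole rosettes from an 8 h photoperiod at 80 µmol m-2 s-1, at least 4 rosettes were pooled per biological replicate, and their age is 4 weeks by the labels (the methods give a younger age). The mutant is a single line whose allele the labels do not name, so what is tied to the mutation and what is tied to the line cannot be told apart.

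Phototropins are plasma-membrane blue-light receptors with a pair of light-sensing LOV domains and a kinase domain. In Arabidopsis, phot1 acts from dim to strong blue light and phot2 mainly in strong light, and together they steer phototropism, chloroplast movement, leaf flattening, and stomatal opening. UV-C, which the atmosphere keeps from sunlight at the ground, damages DNA and photosystem II and triggers an oxidative burst, and in strong doses cell death. The comparison asks which transcripts depend on phot1 shortly after this stress.

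The libraries held 23941127 to 25379844 reads assigned to genes in UV-C treated *phot1* (median 24954432) and 20897905 to 24461667 in UV-C treated wild type (median 23544754). Genes entering the test took 89.08 to 89.44% of the counts in *phot1* and 88.96 to 89.61% in wild type. The non-treated libraries were deeper, and those genes took 99.24 to 99.38% of their counts in *phot1* and 99.31 to 99.36% in wild type, so treatment and library composition cannot be told apart. Marker genes fitted rosette leaves: the summed level of 4 mesophyll markers was 34300 to 35800 CPM (reads scaled to library size) in *phot1* and 29300 to 32000 CPM in wild type, and both seed markers, *CRA1* and *OLEO1*, had at most 1 read in any library. The 4 root markers summed to 369 to 450 CPM in *phot1* and 308 to 349 CPM in wild type, with *RHD6* and *EXPA7* at 1 read or fewer. With edgeR no marker of the 8 lists passed the adjusted p of 0.01. At an unadjusted p under 0.05, 3 of the 4 mesophyll markers were higher, which holds for 9.1% of all tested genes. The 1 tested root marker and 1 of 4 flower markers were also higher at that limit. Of 2 phloem markers 1 was lower, which holds for 7.13% of all tested genes. All 5 markers of dividing tissue had negative values, with 0 at that limit. Of the mesophyll markers 1 was past the adjusted p with DESeq2 and 1 with the likelihood ratio test. The tissue is bulk, so fewer cells of a type and less RNA per cell cannot be told apart.

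*PHOT1* itself (AT3G45780) was measured at 132, 127, and 120 CPM in *phot1*, against 218, 258, and 252 CPM in wild type. The groups did not overlap, and the transcript was reduced but far from absent (log2 fold change −0.94, SE 0.08, adjusted p = 4.87e-07). *PHOT2* was at 403, 356, and 378 CPM in *phot1* and 340, 364, and 375 CPM in wild type, with overlapping groups (log2 fold change 0.075, adjusted p = 0.577). All CPM values are scaled by TMM, and all log2 fold changes are *phot1* over wild type, fitted with edgeR's quasi-likelihood test over all tested genes with Benjamini-Hochberg adjustment. Positive values thus mean higher in *phot1*.

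Few genes separated UV-C treated *phot1* from UV-C treated wild type. A call needed both an adjusted p below 0.01 and a difference of more than 1 on the log2 scale, in either direction. Of 20094 protein-coding genes tested, 19 were called (0.0946%), 7 higher (0.0348%) and 12 lower (0.0597%) in *phot1*. At the adjusted p alone there were 66 genes (0.328%), 34 higher (0.169%) and 32 lower (0.159%), and at an unadjusted p under 0.05 there were 3260 (16.2%). The same tests called 414 genes in *phot2* (2.06%) and 644 in *phot1phot2* (3.2%), each against the same wild-type libraries. The genes that were lower in *phot1* included the defense genes *MBP2*, *JAL23*, *PGIP2*, and *IGMT5*, and *FLR1*, grouped with them by protein family. *NAP* and *GolS2* were among those that were higher. The count rests on few libraries: it was 11 without wild-type replicate 1, 10 without wild-type replicate 3, 11 without *phot1* replicate 1, and 11 without *phot1* replicate 2. It rose to 26 without wild-type replicate 2 and to 28 without *phot1* replicate 3. Whichever library was left out, 8 of the 19 genes were called.

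**Figure D1:**
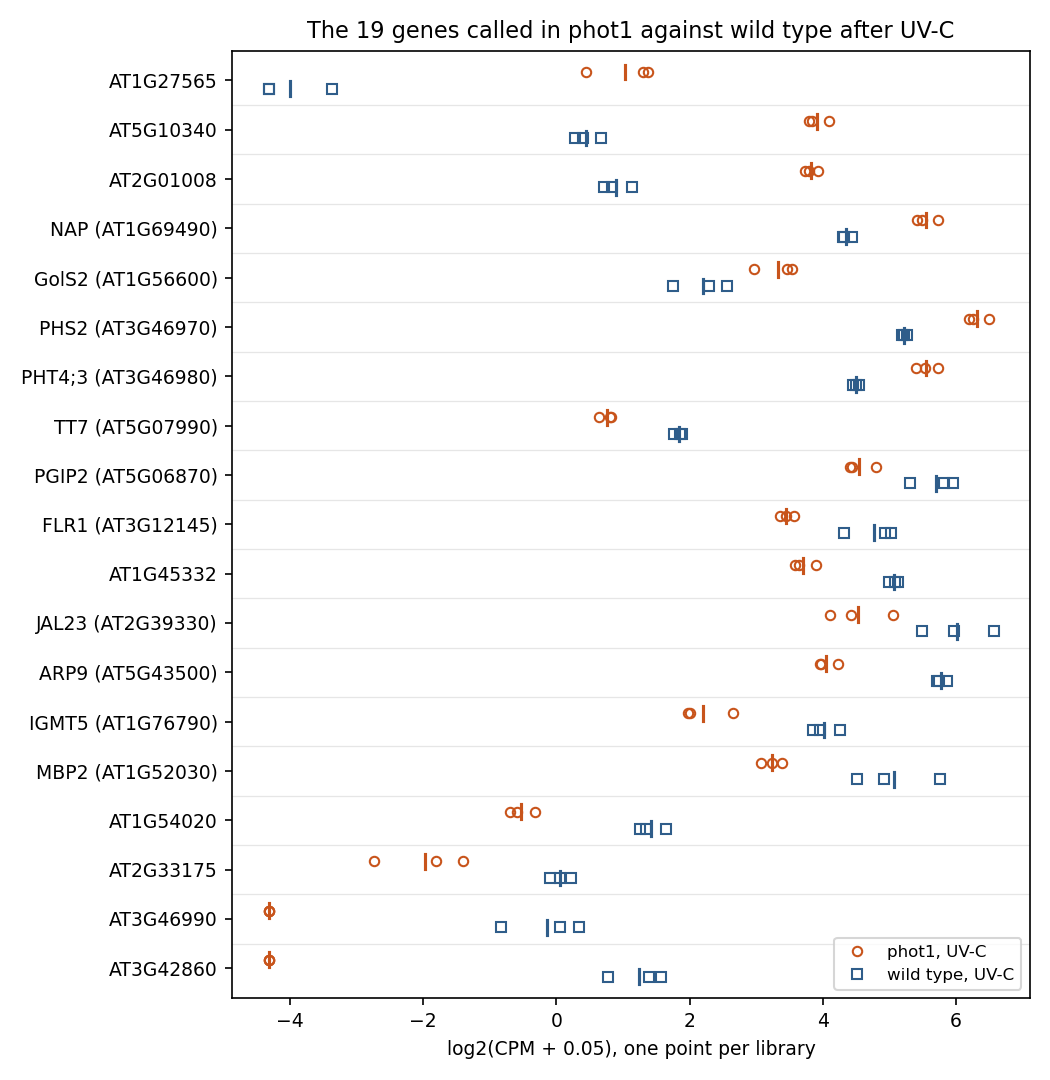
Level of each of the 19 called genes in UV-C treated *phot1* (circles, upper row of each gene) and UV-C treated wild type (squares, lower row), as log2(CPM + 0.05) with 1 point per library and a bar at the mean of 3 libraries. In none of the 19 genes do the groups overlap, which holds for 19.2% of all tested genes. The 19 were called on these same libraries, so the lack of overlap is no separate support. AT3G42860 and AT3G46990 sit at 0 reads in all 3 *phot1* libraries.

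Some of the called genes that were lower have known roles in defense, a grouping made after their values were seen and not tested. Jacalin-related lectins and myrosinase-binding proteins associate with the enzymes that break down glucosinolates, the mustard oil precursors of the cabbage family. *MBP2*, a myrosinase-binding protein gene (chr1:19345871-19349088, minus strand), was at 8.32, 10.4, and 9.35 CPM in *phot1*, against 30.3, 22.9, and 54.3 CPM in wild type. All *phot1* libraries were below all wild-type libraries, which were themselves spread widely (log2 fold change −1.93, SE 0.30, adjusted p = 0.00196). *JAL23*, a jacalin-related lectin, was at 33, 17.1, and 21.4 CPM in *phot1* and 62.7, 44.8, and 94.3 CPM in wild type. Again the lowest wild-type library lay above the highest *phot1* library (log2 fold change −1.49, SE 0.27, adjusted p = 0.00646). *IGMT5*, an indole glucosinolate O-methyltransferase, was at 6.19, 3.86, and 3.94 CPM in *phot1* and 15.4, 14.4, and 19.1 CPM in wild type (log2 fold change −1.80, SE 0.30, adjusted p = 0.00274). The groups of *IGMT5* were far apart, but the gene overlaps AT1G76780 on the opposite strand, and since the counting set no strand their reads cannot be separated. Without wild-type replicate 3, the library with the highest level of all 3 genes, the calls of *MBP2* (adjusted p = 0.0168), *JAL23* (adjusted p = 0.0457), and *IGMT5* (adjusted p = 0.0186) were lost. Leaving out wild-type replicate 1 or *phot1* replicate 1, 2, or 3 also ended 1 to 3 of these calls, with adjusted p up to 0.0199 for *MBP2*, 0.0637 for *JAL23*, and 0.0337 for *IGMT5*.

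A pair of genes for leucine-rich repeat proteins of the polygalacturonase-inhibitor kind fell as well. Polygalacturonase inhibitors block fungal enzymes that digest pectin in the cell wall. *FLR1* is placed here by protein family only, and whether its product acts as such an inhibitor was not tested. *FLR1* (chr3:3874487-3876302, minus strand) was at 10.2, 10.8, and 11.7 CPM in *phot1*, against 30.5, 20, and 32.6 CPM in wild type. The 3 *phot1* values were close together and lower than every wild-type value (log2 fold change −1.34, SE 0.18, adjusted p = 0.000342), and the call held without each library in turn. *PGIP2*, polygalacturonase inhibiting protein 2 (chr5:2133918-2135168, plus strand), was at 21.7, 21.2, and 27.7 CPM in *phot1* and 56.5, 39.6, and 61.6 CPM in wild type (log2 fold change −1.16, SE 0.19, adjusted p = 0.00274). The *PGIP2* groups did not overlap either, but its call was lost without wild-type replicate 1 or 3 or *phot1* replicate 1 or 2 (adjusted p = 0.0196 to 0.0336).

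In the non-treated plants none of these 5 genes passed the test. *MBP2* was at 5.84, 6.61, and 6.73 CPM in non-treated *phot1* and 8.97, 7.43, and 6.59 CPM in non-treated wild type. *FLR1* was at 9.12, 9.52, and 7.55 CPM and 9.51, 10.4, and 8.21 CPM in the same order of groups. For both genes the UV-C treated wild-type libraries were the ones that stood out among these 4 groups. The log2 fold change of non-treated *phot1* over non-treated wild type was −0.27 for *MBP2*, −0.22 for *JAL23*, −0.10 for *FLR1*, 0.03 for *PGIP2*, and −0.57 for *IGMT5*, with adjusted p of 0.414 to 0.974. The interaction, which tests whether UV-C acted differently in *phot1* and in wild type, did not pass for any of them (adjusted p = 0.38 for *IGMT5*, 0.318 for *JAL23*, 0.22 for *MBP2*, 0.11 for *PGIP2*, and 0.069 for *FLR1*). A difference after UV-C that was not called without UV-C is thus not shown to depend on UV-C.

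**Figure D2:**
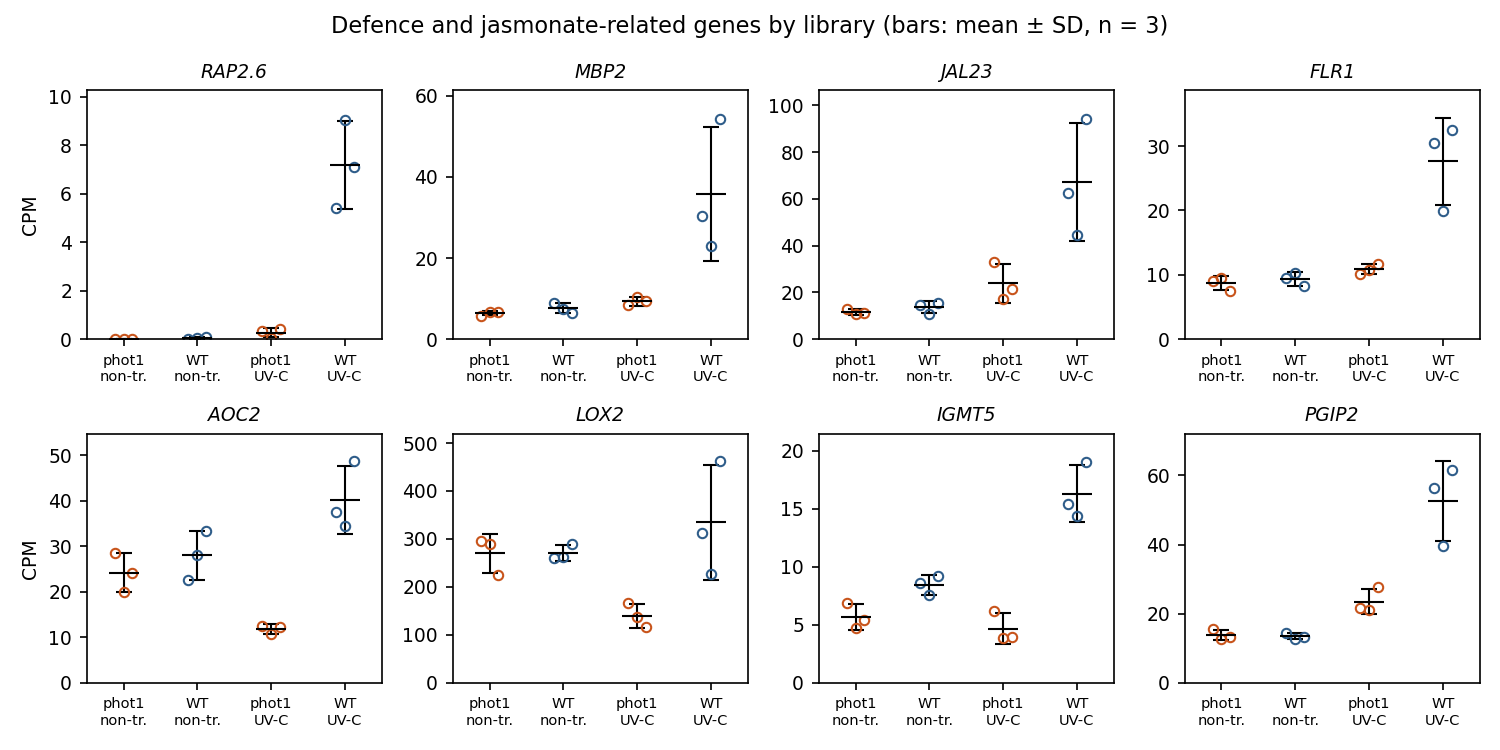
CPM of 8 genes grouped as defense or jasmonate-related, *FLR1* by protein family only, in each library of *phot1* (orange) and wild type (blue). Non-treated plants are on the left of each panel and UV-C treated on the right, with the mean ± SD of 3 libraries. The y axes differ and start at 0. For *RAP2.6*, *MBP2*, *FLR1*, and *JAL23* the UV-C treated wild type holds the 3 highest libraries, and UV-C treated *phot1* lies below them.

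The other called genes that were lower are of mixed kinds. AT1G54020, a GDSL-type lipase, was at 0.567, 0.752, and 0.611 CPM in *phot1*, against 2.48, 2.33, and 3.09 CPM in wild type (log2 fold change −2.03, SE 0.35, adjusted p = 0.0037). *TT7*, the cytochrome P450 that adds a hydroxyl group to flavonoids, was at 1.7, 1.71, and 1.5 CPM in *phot1* and 3.56, 3.36, and 3.64 CPM in wild type (log2 fold change −1.102, SE 0.20, adjusted p = 0.00725). AT2G33175, annotated only as an uncharacterized protein, was at 0.236, 0.1, and 0.329 CPM in *phot1* and 0.983, 1.12, and 0.882 CPM in wild type (log2 fold change −2.14, SE 0.39, adjusted p = 0.00684). None of the 3 overlapped between the groups, and all 3 are expressed at a few CPM or less. AT2G33175 rests on 5, 2, and 7 reads in *phot1*. The call of AT1G54020 was lost without wild-type replicate 1 or 3 or *phot1* replicate 1 or 2 (adjusted p up to 0.0297), that of AT2G33175 without any library but *phot1* replicate 3 (up to 0.0618), and that of *TT7* without any library (up to 0.0394). With the fit limited to these 6 libraries, AT2G33175 (adjusted p = 0.0346) and *TT7* (adjusted p = 0.0149) were not called either.

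Jasmonate is the wound and herbivory hormone, made from plastid lipids by lipoxygenase, allene oxide synthase, and allene oxide cyclase, and sensed by COI1 with the JAZ repressors. Of 25 tested genes of jasmonate synthesis and signaling, 23 had a lower fitted level in *phot1* than in wild type after UV-C, and the median log2 fold change was −0.41, against 0.0034 for all tested genes. None passed the adjusted p of 0.01 with edgeR, whereas 11 were lower at an unadjusted p under 0.05, which holds for 7.13% of all tested genes, and none was higher. DESeq2 put 2 of the list below that adjusted p, and the likelihood ratio test 5, all lower. In 11 of the 25 genes the 3 *phot1* libraries were all below the 3 wild-type libraries, which holds for 8.32% of all tested genes. The 2 genes with positive values, named after their values were seen, were *JAZ4* (0.35) and the receptor gene *COI1* (0.09).

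*AOC2*, an allene oxide cyclase, was at 12.5, 10.6, and 12.3 CPM in *phot1*, against 37.5, 34.5, and 48.7 CPM in wild type (log2 fold change −1.76, SE 0.40, adjusted p = 0.0247). *LOX2*, the chloroplast lipoxygenase that starts the pathway, was at 166, 138, and 116 CPM in *phot1* and 313, 227, and 463 CPM in wild type (log2 fold change −1.26, SE 0.29, adjusted p = 0.0249). Neither gene overlapped between the groups and neither was called. The summed level of the 25 genes was 1132, 979.4, and 1089 CPM in *phot1* and 1489, 1228, and 1764 CPM in wild type after UV-C. Without UV-C the sums were 886.9, 840.1, and 797.6 CPM in *phot1* and 818.9, 837.8, and 890.3 CPM in wild type, with overlapping groups, and the median log2 fold change of the list was −0.08.

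Among *phot1* and wild type, *RAP2.6* was read in number after UV-C in wild type alone. It encodes an ERF-type transcription factor that responds to jasmonate, abscisic acid, and pathogens. After UV-C it was at 0.331, 0.0501, and 0.423 CPM in *phot1*, against 5.43, 9.05, and 7.11 CPM in wild type, that is, 7, 1, and 9 reads against 116, 194, and 129 reads. Without UV-C it had at most 1 read in any *phot1* library and at most 4 reads in any wild-type library. The UV-C treated wild type was the only one of these 4 groups with more than 9 reads in a library, but the difference after UV-C missed the threshold (log2 fold change −4.71, SE 0.99, adjusted p = 0.0174). It passed with the likelihood ratio test (adjusted p = 3.46e-06), DESeq2 (0.000947), and in a fit of the groups compared (9.02e-05), and over the other alternatives without a block the adjusted p was 0.0125 to 0.0917. The interaction was −3.39 with an adjusted p of 0.964, and it rests on the few reads of the non-treated groups. The levels in the other UV-C treated mutants scattered: 15.5, 0.846, and 5.08 CPM in *phot2* and 10, 19, and 1.21 CPM in *phot1phot2*, so *phot1* was the only mutant in which every library stayed under 0.5 CPM. Of 20 tested CBF, DREB, and ERF factors, 5 had positive and 15 negative values (median −0.17), and none passed the adjusted p with edgeR. At an unadjusted p under 0.05, 1 was lower, which holds for 7.13% of all tested genes. With DESeq2 and with the likelihood ratio test 1 was lower past the adjusted p.

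The called genes that were higher in *phot1* included a senescence gene and an osmotic stress gene. *NAP* encodes a NAC transcription factor that promotes leaf senescence. It was at 53.1, 42.3, and 45 CPM in *phot1*, against 19.9, 21.5, and 19.6 CPM in wild type, with no overlap (log2 fold change 1.202, SE 0.20, adjusted p = 0.00274). *GolS2* encodes galactinol synthase 2, which starts the synthesis of raffinose-family sugars that protect dehydrating cells. It was at 10.9, 11.6, and 7.8 CPM in *phot1* and 3.32, 4.85, and 5.84 CPM in wild type (log2 fold change 1.12, SE 0.19, adjusted p = 0.00316). The *GolS2* groups were close at their edges, 7.8 CPM against 5.84 CPM. The call of *NAP* was lost without wild-type replicate 1 or 3 or *phot1* replicate 1 (adjusted p = 0.0186 to 0.0277), and that of *GolS2* without wild-type replicate 1, where its log2 fold change was 0.92, or without *phot1* replicate 1 or 2 (adjusted p = 0.0215 to 0.0369). *GolS2* was also not called in fits of only the groups compared (adjusted p = 0.0209, and 0.0157 with a replicate block) or only the UV-C libraries (adjusted p = 0.0102).

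The promoters of both genes are shown because they hold a motif that few promoters have. The window is the 300 bases before the annotated start, read on the gene's strand from the reference genome TAIR10.1, and capitals mark the G-box, CACGTG, which is its own reverse complement. The G-box is the binding site of bZIP and bHLH factors in light, abscisic acid, and jasmonate signaling.
*NAP* promoter (chr1:26121780-26122079, plus strand): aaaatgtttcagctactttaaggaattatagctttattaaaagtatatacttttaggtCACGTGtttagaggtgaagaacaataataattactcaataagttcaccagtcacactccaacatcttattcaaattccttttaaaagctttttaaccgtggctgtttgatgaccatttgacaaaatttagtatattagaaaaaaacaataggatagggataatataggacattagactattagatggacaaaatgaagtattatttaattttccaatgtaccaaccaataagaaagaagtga
*GolS2* promoter (chr1:21207237-21207536, plus strand): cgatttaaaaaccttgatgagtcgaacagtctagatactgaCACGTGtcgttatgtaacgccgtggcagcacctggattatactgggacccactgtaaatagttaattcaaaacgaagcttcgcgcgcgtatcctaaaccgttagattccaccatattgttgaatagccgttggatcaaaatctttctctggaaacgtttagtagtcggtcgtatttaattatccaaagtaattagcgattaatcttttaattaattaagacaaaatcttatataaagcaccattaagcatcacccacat
Of the 7 called genes that were higher, 3 held a G-box in this window, *NAP*, *GolS2*, and *PHS2*. The 7 include AT2G01008, whose window has undetermined bases in the reference except at its end, so a motif could hardly be found there. Of the 12 that were lower, 0 held one, and of the 20093 windows of all tested genes 8.02% did. A match of letters is a description and not a shown binding site.

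In the senescence and stress NAC list, 2 of 12 tested genes passed the adjusted p of 0.01 and both were higher, *NAP* and *NAC6* (also named ORE1), another promoter of leaf senescence. Of all tested genes, 0.169% were higher past that limit. *NAC6* was at 11.4, 10.6, and 8.31 CPM in *phot1* and 4.63, 6.62, and 5.13 CPM in wild type, without overlap (log2 fold change 0.89, SE 0.16, adjusted p = 0.00686). The list as a whole was mixed, with 8 positive and 4 negative values and a median of 0.24. Chlorophyll breakdown and other senescence outputs did not pass, with 4 of 6 values positive. *GolS2* was the only 1 of 5 tested genes of galactinol and raffinose synthesis past the adjusted p, and 3 of the 5 were negative. Without UV-C the log2 fold change was 0.93 for *NAP* (adjusted p = 0.0157) and 0.71 for *GolS2* (adjusted p = 0.0707), short of the threshold.

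A further group of called genes differed by genotype whether or not UV-C was given. The comparison of non-treated *phot1* with non-treated wild type called 25 genes (0.124%), 16 higher (0.0796%) and 9 lower (0.0448%), and it shares no library with the UV-C comparison. The overlap was 5 genes, 26.32% of the 19 called after UV-C and 20% of the 25 called without, and all 5 had the same direction: *ARP9*, AT1G45332, AT3G42860, and AT3G46990 were lower and AT1G27565 was higher. At the adjusted p alone the overlap was 12 genes, 18.18% of 66 and 12.77% of the 94 genes (0.468%) past it without UV-C. Of the 66 genes, 60 had the same sign in the non-treated plants, and 16 had a log2 fold change there of more than 0.5 in either direction. The share of same signs over all tested genes was not computed.

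*ARP9* encodes actin-related protein 9 (chr5:17469490-17473619). It was at 15.5, 15.6, and 18.6 CPM in *phot1*, against 58, 53.6, and 52.1 CPM in wild type after UV-C. It had the smallest p of all tested genes (log2 fold change −1.72, SE 0.07, adjusted p = 5.09e-13), and the non-treated plants gave −1.62. AT1G45332, a translation elongation factor of the EF-G family (chr1:17172121-17177060), was at 12.4, 14.8, and 11.9 CPM in *phot1* and 35, 33.8, and 31.6 CPM in wild type (log2 fold change −1.36, SE 0.09, adjusted p = 3.44e-09). Both transcripts stood at about the same levels with and without UV-C in each genotype. They parted in the other mutants: *ARP9* was at 18.6, 21.2, and 20.4 CPM in *phot2*, whereas AT1G45332 was there at 33.4, 32.4, and 34.3 CPM. In *phot1phot2* both were low, at 13.4 to 13.5 CPM for *ARP9* and 10.7 to 12.5 CPM for AT1G45332.

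The remaining 3 of these 5 genes were all but silent in a genotype. AT3G42860, a zinc-knuckle protein, had 0 reads in every *phot1* library, against 62, 55, and 30 reads in the UV-C treated wild type, which makes it at least 16.4-fold lower with a floor of 3 reads per library. AT3G46990, a DUF740 protein, had 0 reads in every *phot1* library, against 26, 11, and 18 reads in wild type, which makes it at least 6.29-fold lower. AT1G27565, an uncharacterized protein, went the other way, with 51, 26, and 54 reads in *phot1* and 1, 0, and 0 reads in wild type. The ratio was 128 (95% exact interval 22.6 to 5090, counting error only). AT1G27565 entered the test largely through the *phot1* libraries. The ratio and the fold limits come from the reads that gave the calls, so they are no separate support. In *phot1phot2*, AT3G42860 and AT3G46990 also had 0 reads, whereas AT1G27565 had 0 reads in *phot2* and *phot1phot2* so that beyond 1 read in wild type it was found in *phot1* alone. AT3G46990 overlaps AT3G47000 and AT3G07615 on the opposite strand, and its call was lost without wild-type replicate 1 or 3 or *phot1* replicate 1 or 2 (adjusted p = 0.0186 to 0.0292).

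**Figure D3:**
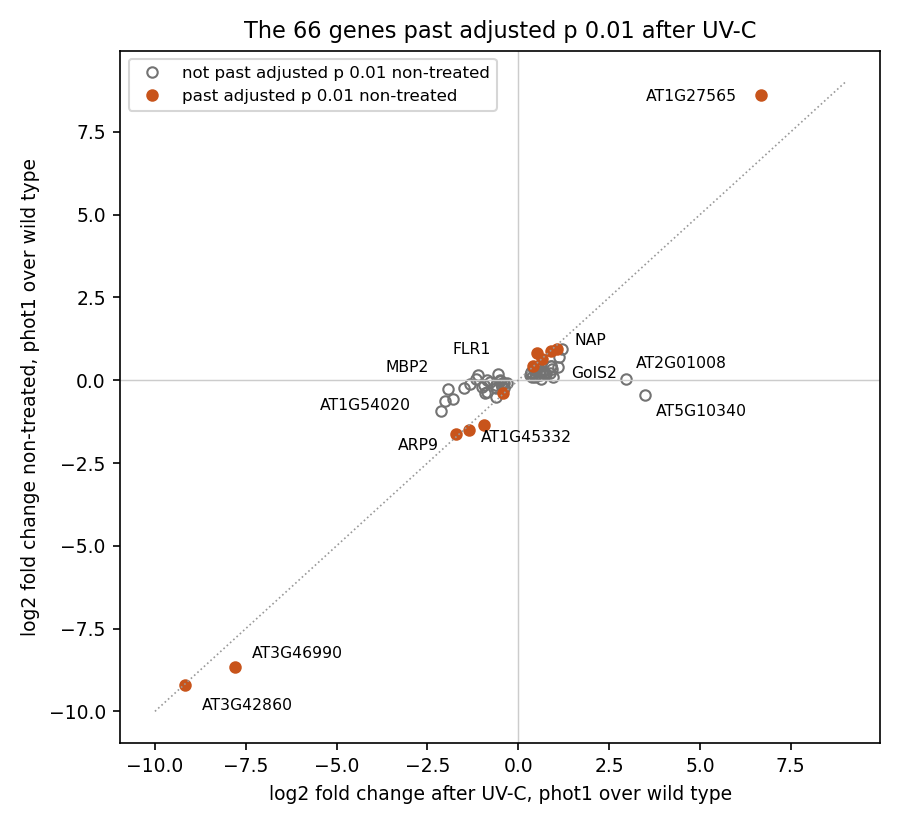
Log2 fold change of *phot1* over wild type after UV-C (x axis) and without UV-C (y axis) for the 66 genes past an adjusted p of 0.01 after UV-C; filled points also passed it without UV-C, and the dotted line marks equal values. *ARP9* and AT1G45332 lie near that line and the 3 genes with almost no reads in a genotype lie far out on the same side of 0 on both axes, while *MBP2*, *FLR1*, AT2G01008, and AT5G10340 lie near 0 on the y axis; the values of genes with no reads in a genotype depend on the prior count of the fit.

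Several of these genes lie near the *PHOT1* locus on chromosome 3. Of 507 tested genes within 2 Mb of *PHOT1*, 4 were called (0.789%), against 15 of the other 19586 (0.0766%). A run of 3 neighbors about 0.48 Mb away held 3 of the 4: *PHS2* (chr3:17301394-17306633, minus strand), *PHT4;3* (chr3:17306599-17310068, minus strand), and AT3G46990 (chr3:17311672-17313752, plus strand). *PHS2*, the cytosolic glucan phosphorylase of starch breakdown, was at 90.2, 76.1, and 73.2 CPM in *phot1*, against 37, 38.3, and 36.4 CPM in wild type (log2 fold change 1.1, SE 0.09, adjusted p = 3.34e-07). *PHT4;3*, a phosphate transporter, was at 53, 46, and 42.2 CPM in *phot1* and 23.1, 21.7, and 22.4 CPM in wild type (log2 fold change 1.07, SE 0.10, adjusted p = 1.99e-06, and 0.98 without *phot1* replicate 1, which is under the limit for a call).

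Within this run 2 genes were higher in *phot1* and the third had no reads there. The genes on either side did not pass: AT3G46960 had a log2 fold change of −0.08 (adjusted p = 0.614), AT3G47000 of −0.13 (adjusted p = 0.392), and AT3G47010 of 0.02 (adjusted p = 0.9). *PHS2* and *PHT4;3* overlap at their ends on the same strand, so reads there could belong to either. In *phot1phot2* they were at 81.2 to 93.9 CPM and 57.7 to 72.9 CPM, and in *phot2* at 24 to 27.3 CPM and 18.4 to 22.4 CPM, so that the 2 lines with the *phot1* mutation had the higher levels. Without UV-C the log2 fold change was 0.95 for *PHT4;3* (adjusted p = 6.81e-06) and 0.41 for *PHS2* (adjusted p = 0.0179). The *phot1* mutation and the DNA next to it are inherited together, and the files do not tell apart what each of them does to these neighbors.

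**Figure D4:**
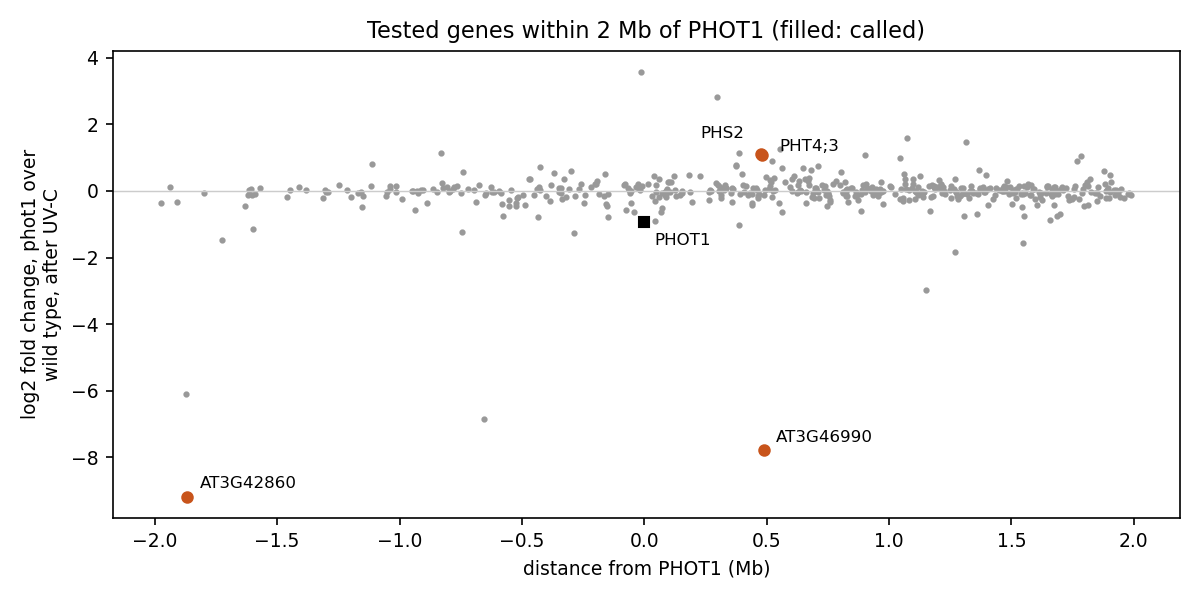
Log2 fold change of *phot1* over wild type after UV-C for tested genes by their distance from *PHOT1* in Mb, with called genes in orange. The 2 points near 1.1 and the point near −7.8 at about 0.5 Mb are *PHS2*, *PHT4;3*, and AT3G46990; AT3G42860 lies at −1.87 Mb, and the values of AT3G42860 and AT3G46990, which have 0 reads in *phot1*, depend on the prior count of the fit.

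A pair of called genes that were higher share sequence with each other and with the flank of ribosomal RNA genes. AT2G01008 (chr2:1025-3173, plus strand) lies just before an 18S ribosomal RNA gene, AT2G01010 (chr2:3706-5513), and AT5G10340 (chr5:3253122-3255045, plus strand) is annotated as an F-box protein. AT2G01008 had 291, 264, and 323 reads in *phot1* and 37, 34, and 39 reads in wild type (log2 fold change 2.95, SE 0.20, adjusted p = 6.78e-09). AT5G10340 had 302, 274, and 361 reads in *phot1* and 27, 33, and 21 reads in wild type (log2 fold change 3.495, SE 0.34, adjusted p = 1.99e-06). Neither overlapped between the groups, and each was at 13 reads or fewer in every non-treated library of both genotypes. The first exon of AT5G10340 (chr5:3253122-3253260) is shown because nearly all of it recurs within AT2G01008.
AT5G10340 exon 1: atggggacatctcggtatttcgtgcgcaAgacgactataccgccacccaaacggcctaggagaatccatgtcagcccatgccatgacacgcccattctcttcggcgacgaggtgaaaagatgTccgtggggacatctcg
It is coding sequence in the annotation and is printed from TAIR10.1. Of its 139 bases, 137 lie in runs of at least 25 bases that are identical to chromosome 2 within AT2G01008, and capitals mark the 2 bases that do not. A run of 59 bases that ends beyond the exon matches chr2:2264-2322, and a run of 52 bases within it matches chr2:2364-2415, both on the opposite strand. A further run lies mostly before the exon and matches chr2:2486-2550 and chr2:2796-2860 on the same strand. It is at least 65 bases long, since it begins at the edge of the stretch that was searched. Chromosome 3 holds the 59- and 52-base runs at chr3:14196231-14196289 and chr3:14196331-14196382, before the 18S gene AT3G41768 (chr3:14197677-14199484).

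Reads of the 2 genes are therefore uncertain in origin, and the ribosomal genes were read beside them. The 5.8S gene AT2G01020, which is not protein-coding and was left out of the test, had 273, 252, and 354 reads in *phot1*, against 89, 73, and 65 reads in wild type. The 18S gene AT3G41768 had 610408, 627389, and 593322 reads in *phot1* and 546389, 611470, and 525025 reads in wild type, with overlapping groups. It took 2.38 to 2.62% of all counts in *phot1* and 2.32 to 2.51% in wild type after UV-C, against at most 0.032% without UV-C. AT2G01008 and AT5G10340 were also higher in *phot2* (log2 fold change 2.02 and 2.21) and in *phot1phot2* (2.03 and 2.53), all against the same wild-type libraries, so the 3 UV-C treated wild-type libraries were the lowest of the 4 UV-C treated groups. The part of ribosomal RNA precursors in these values was not tested.

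Light-harvesting genes had small but uniformly positive values. Their products bind the chlorophyll of the antennae of both photosystems. All 21 tested members of the list had a positive log2 fold change in *phot1* after UV-C (median 0.29, range 0.03 to 0.57), and in 17 of them every *phot1* library lay above every wild-type library, which holds for 10.9% of all tested genes. None passed the adjusted p of 0.01 with edgeR, whereas 17 were higher at an unadjusted p under 0.05, which holds for 9.1% of all tested genes. DESeq2 put 4 of the 21 and the likelihood ratio test 8 past the adjusted p, all higher. *LHCA3*, of photosystem I, was at 4675, 4748, and 4468 CPM in *phot1* and 3461, 3892, and 3883 CPM in wild type (log2 fold change 0.31, SE 0.06, adjusted p = 0.0128). *LHCB5*, of photosystem II, was at 7576, 7532, and 7168 CPM in *phot1* and 5590, 6232, and 6324 CPM in wild type (log2 fold change 0.30, SE 0.06, adjusted p = 0.0199). For both genes the *phot1* libraries were the 3 highest of the 6.

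The summed level of the 21 genes was 128600, 128800, and 122000 CPM in *phot1* and 97280, 109600, and 111700 CPM in wild type after UV-C. Without UV-C it was 49030, 51530, and 54330 CPM in *phot1* and 36430, 42670, and 43760 CPM in wild type. In both treatments the sums of *phot1* lay above those of wild type without overlap. Without UV-C the median log2 fold change was 0.36, with 5 genes past the adjusted p, which 0.468% of all tested genes passed there. The summed mesophyll markers were also higher in *phot1*, 34300 to 35800 CPM against 29300 to 32000 CPM in wild type, and their part in this result was not tested.

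Genes of the circadian clock were read as a morning and an evening list, whose difference was not tested. In the clock, dawn-expressed MYB factors such as CCA1 and LHY repress evening genes through the evening element in their promoters, and evening factors repress the dawn genes in turn. All 10 tested morning genes had positive values (median 0.33), with none past the adjusted p by edgeR, DESeq2, or the likelihood ratio test. At an unadjusted p under 0.05, 3 were higher, which holds for 9.1% of all tested genes. Of 9 evening genes, 7 had negative values (median −0.29), and 2 fell at the adjusted p of 0.01, which holds for 0.159% of all tested genes. The positive ones, named after their values were seen, were *ELF4* (0.55) and *GI* (0.40). *BOA*, a GARP factor related to LUX, was at 2.79, 2.41, and 2.16 CPM in *phot1*, against 5.34, 4.43, and 4.85 CPM in wild type (log2 fold change −0.99, SE 0.18, adjusted p = 0.00717). *PRR3*, a pseudo-response regulator, was at 2.32, 1.75, and 2.4 CPM in *phot1* and 4.21, 3.83, and 4.3 CPM in wild type (log2 fold change −0.93, SE 0.17, adjusted p = 0.0064). Neither overlapped between the groups.

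*GRP7*, an RNA-binding protein that oscillates under the control of the clock and peaks in the evening, fell as well. It was at 84.8, 68.1, and 67.3 CPM in *phot1* and 119, 107, and 112 CPM in wild type, without overlap (log2 fold change −0.62, SE 0.11, adjusted p = 0.00626). The summed level of the 9 evening genes was 59.95, 58.31, and 59.6 CPM in *phot1* and 76.82, 73.42, and 76.56 CPM in wild type after UV-C. The 10 morning genes summed to 3737, 3771, and 3745 CPM in *phot1* and 2947, 3110, and 2969 CPM in wild type. Without UV-C the medians had the same signs, 0.59 for the morning and −0.38 for the evening list. There 3 morning genes and 0 evening genes passed the adjusted p, which 0.468% of all tested genes passed, and the 3 were higher. The hour of harvest of each library was not in the sources used here, so a difference in harvest time and a difference in genotype cannot be told apart.

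The promoters of *GRP7* and *BOA* are shown because both genes fell and both promoters hold the evening element, AAAATATCT, in capitals on either strand. In the *BOA* promoter the other capitals mark a G-box.
*GRP7* promoter (chr2:9266558-9266857, minus strand): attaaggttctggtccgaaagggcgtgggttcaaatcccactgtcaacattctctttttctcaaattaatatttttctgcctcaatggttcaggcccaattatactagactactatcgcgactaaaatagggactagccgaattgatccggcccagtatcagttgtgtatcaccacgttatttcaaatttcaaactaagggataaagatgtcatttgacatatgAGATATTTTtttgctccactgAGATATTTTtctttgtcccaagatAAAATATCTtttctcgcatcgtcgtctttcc
*BOA* promoter (chr5:24003588-24003887, plus strand): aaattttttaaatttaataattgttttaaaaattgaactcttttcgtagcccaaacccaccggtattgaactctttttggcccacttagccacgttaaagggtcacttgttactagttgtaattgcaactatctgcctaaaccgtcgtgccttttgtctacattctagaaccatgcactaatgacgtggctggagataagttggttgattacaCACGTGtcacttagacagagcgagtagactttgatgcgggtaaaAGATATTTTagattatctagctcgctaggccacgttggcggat
*GRP7* held 3 evening elements in this window and *BOA* held 1, while *PRR3* held 0. Of the 9 evening genes, 5 held the element, against 2.92% of all windows.

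**Figure D5:**
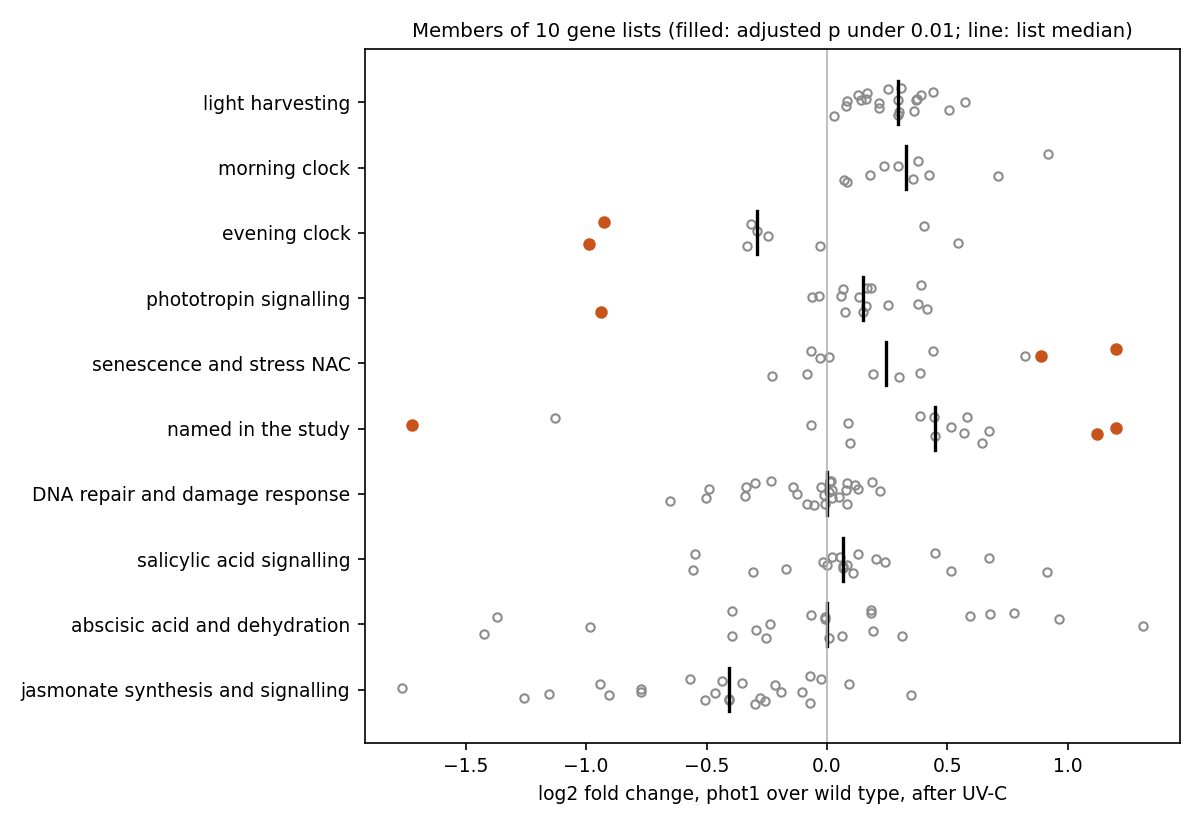
Log2 fold change of *phot1* over wild type after UV-C for each tested member of 10 gene lists, with the median of each list as a bar and members past an adjusted p of 0.01 filled. All light-harvesting and morning clock genes lie right of 0, 23 of the 25 jasmonate genes lie left of it, and DNA repair genes spread around it.

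Other genes passed the adjusted p with less than a 2-fold difference, and they are grouped here only by known role. Among pigment and tocopherol genes, *GUN5*, the large subunit of the magnesium chelatase of chlorophyll synthesis, averaged 3122 ± 55.8 CPM in *phot1* and 2360 ± 147 CPM in wild type (SD, n = 3 each; log2 fold change 0.40, adjusted p = 0.00904 by edgeR). *VTE5*, which recycles phytol into tocopherol, rose by 0.36 (adjusted p = 0.00316), and *PDS1*, which makes a precursor of plastoquinone and tocopherol, by 0.49 (adjusted p = 0.00632). *MYBL2*, a repressor of anthocyanin synthesis, was at 39.8, 36.9, and 31.8 CPM in *phot1* and 18.4, 21.1, and 18.8 CPM in wild type (log2 fold change 0.90, SE 0.10, adjusted p = 3.87e-05). It is one of the genes that differed as much without UV-C (log2 fold change 0.88). *P5CS2*, of proline synthesis, rose by 0.35 (adjusted p = 0.00437).

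Defense genes were not all lower. *PEN2*, an atypical myrosinase of indole glucosinolates, was at 65.4, 71.7, and 62.6 CPM in *phot1* and 50, 50.6, and 53.4 CPM in wild type (log2 fold change 0.38, adjusted p = 0.0079). *IGMT1*, a relative of *IGMT5*, was at 13.4, 14.5, and 11.5 CPM in *phot1* and 8.1, 7.65, and 7.39 CPM in wild type (log2 fold change 0.76, adjusted p = 0.00316). The 2 methyltransferase genes thus differed in opposite directions, both without overlap between the groups. Receptor-like kinase genes AT1G29720 (0.93, adjusted p = 0.000988), AT4G27300 (0.60, adjusted p = 0.00073), and AT5G38990 (0.33, adjusted p = 0.00802) rose, as did the extensin gene *EXT4* of the cell wall (0.69, adjusted p = 0.00253) and *IAA14*, a repressor of auxin responses (0.67, adjusted p = 0.000988). The defensin-like gene AT2G43530 fell by 0.87 (adjusted p = 0.00274) and the glycine-rich protein gene AT5G46730 by 0.94 (adjusted p = 0.00274).

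Of the genes that fell, some act at membranes or in lipid synthesis, and they were picked after their values were seen. *GAMMA-TIP*, a water channel of the vacuole membrane, was at 203, 205, and 221 CPM in *phot1* and 282, 301, and 316 CPM in wild type (log2 fold change −0.51, SE 0.08, adjusted p = 0.000988). *TAG1*, the acyltransferase that completes storage lipids, fell by 0.77 (adjusted p = 0.000988), and *ACA8*, a calcium pump of the plasma membrane, by 0.42 (adjusted p = 0.00155). *XPL1*, of phosphatidylcholine synthesis, fell by 0.40 (adjusted p = 0.00396), and *CHL*, a chloroplast lipocalin that protects thylakoid lipids, by 0.32 (adjusted p = 0.00708). *GBF6*, a bZIP factor repressed by sucrose, was at 5.2, 4.51, and 5.45 CPM in *phot1* and 10.8, 9.28, and 7.39 CPM in wild type (log2 fold change −0.86, SE 0.15, adjusted p = 0.0033). None of these genes passed the adjusted p in the non-treated plants.

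Most genes of the phototropin pathway itself did not pass the test. Of 15 genes of phototropin signaling, 12 had positive values (median 0.15) and *PHOT1* alone passed, as lower. The other negative ones were *PKS1* (−0.06) and *BLUS1* (−0.03), named after their values were seen. Of 9 chloroplast movement genes 8 were positive, with the exception of *KAC2* (−0.03). *JAC1*, an auxilin-like protein needed for chloroplast movement, was at 187, 185, and 174 CPM in *phot1* and 134, 160, and 155 CPM in wild type, without overlap (log2 fold change 0.28, adjusted p = 0.0745). THRUMIN1 (AT1G64500), which bundles actin at chloroplasts, gave 0.34 (adjusted p = 0.0656). Among 12 other photoreceptors the values ran up to 0.24, for *PHYA* (adjusted p = 0.0803). In the 3 lists, 6 of 15, 4 of 9, and 4 of 12 genes were higher at an unadjusted p under 0.05, which holds for 9.1% of all tested genes, and the likelihood ratio test put 1, 1, and 0 of them past the adjusted p as higher.

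The genes that repair UV lesions did not separate the genotypes. Of 28 tested genes of DNA repair and damage response, 14 had positive and 14 negative values, and the median was 0.001. With edgeR, DESeq2, and the likelihood ratio test, 0 passed the adjusted p. By edgeR 4 had an unadjusted p under 0.05 (2 higher and 2 lower), which holds for 16.2% of all tested genes. *PARP2*, a sensor of strand breaks, was at 2.36, 2.96, and 2.96 CPM in *phot1* and 4.21, 3.59, and 3.91 CPM in wild type (log2 fold change −0.50, adjusted p = 0.147), and *UVH3*, a nuclease of excision repair, gave 0.19 (adjusted p = 0.153). The 16 genes of the UV light response had a median of 0.07, and the smallest p-values were those of *RUP2* (0.24, adjusted p = 0.242) and *SPA1* (0.14, adjusted p = 0.383). Of 19 genes of salicylic acid signaling 13 were positive (median 0.07), and *EDS5*, the transporter of its precursor, gave −0.56 (adjusted p = 0.196). Of 16 heat shock genes 11 were negative, and of 16 WRKY factors 9 were positive, with *WRKY60* at 0.73 (adjusted p = 0.021).

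Stress enzymes were mixed. *CAT2*, the main leaf catalase, was at 1425, 1369, and 1258 CPM in *phot1* and 903, 1135, and 1040 CPM in wild type (log2 fold change 0.40, SE 0.08, adjusted p = 0.0142). *CAT3* gave 0.38 (adjusted p = 0.0178). Both catalases had all *phot1* libraries above all wild-type libraries, but 8 of the 21 antioxidant genes were negative and the median was 0.06. Without overlap, 6 of the 21 were higher and 3 lower, which holds for 10.9% and 8.32% of all tested genes. With edgeR 0 passed the adjusted p. DESeq2 and the likelihood ratio test each put 2 past it as higher and 1 as lower. In the abscisic acid and dehydration list 11 genes were positive and 11 negative. *P5CS1*, of proline synthesis, gave 0.78 (adjusted p = 0.0312), whereas *LTI78* (also named RD29A) was at 13.9, 8.17, and 11.4 CPM in *phot1* and 32.6, 41.8, and 15 CPM in wild type (log2 fold change −1.42, adjusted p = 0.0387). All 3 *phot1* values of *LTI78* were below those of wild type, while it was at 73.2 to 181 CPM in *phot2* and 152 to 323 CPM in *phot1phot2*.

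Of 15 genes that the study names by identifier, 12 of them for UV-C treated mutants and *RD26*, *SAG21*, and AT2G20670 in another context, 12 had positive values (median 0.45), 2 were called higher (*GolS2* and *NAP*), and 1 was called lower (*ARP9*). Over all tested genes, 0.0348% were called higher and 0.0597% lower. With the likelihood ratio test 4 of the 15 were higher and 2 lower past the adjusted p, and with DESeq2 2 were higher and 2 lower. These genes were chosen by the study on these samples, so their directions in these libraries are not independent evidence. The study also reports qPCR of selected genes for plasma-membrane signaling proteins in additional biological replicates. Those qPCR values were not used here. *ACD6*, a membrane protein of salicylic acid-dependent defense, was at 20.1, 25.9, and 14.7 CPM in *phot1* and 9.88, 15.3, and 12.8 CPM in wild type, with overlap (log2 fold change 0.67, adjusted p = 0.217). The pathogenesis gene *BGL2* (also named PR2) gave 0.52 (adjusted p = 0.606), and the receptor-like kinases *CRK15* and *CRK24* gave 0.45 (adjusted p = 0.511) and 0.58 (adjusted p = 0.474). The RING-type ligase gene AT1G49230 was at 1.84, 1.75, and 1.41 CPM in *phot1* and 4.12, 3.78, and 3.03 CPM in wild type (log2 fold change −1.13, adjusted p = 0.0297). AT3G54510 gave 0.64 (adjusted p = 0.0736), AT1G52200 gave 0.57 (adjusted p = 0.0639), *RD26* gave 0.39 (adjusted p = 0.625), and AT4G28140 gave 0.44 (adjusted p = 0.775). *SAG21* (0.09), AT2G20670 (0.10), and *ERD9* (−0.07) lay close to 0.

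Few genes responded to UV-C differently in *phot1* and in wild type by the test of that difference. The interaction called 1 gene (0.00498%), 3 genes (0.0149%) passed the adjusted p without the limit on the fold change, and 1481 (7.37%) had an unadjusted p under 0.05. AT2G01008 had an interaction of 2.91 (adjusted p = 0.00423), with 0.319, 0.332, and 0.206 CPM in non-treated *phot1* and 0.226, 0.323, and 0.298 CPM in non-treated wild type. *C/VIF2*, an inhibitor of sugar-cleaving invertases, was at 35.2, 33.5, and 36.5 CPM in *phot1* and 49.6, 55, and 52 CPM in wild type after UV-C. Without UV-C it was at 63.6, 61, and 56.5 CPM in *phot1* and 52.5, 53.6, and 54.3 CPM in wild type, so the order of the genotypes was the opposite (interaction −0.75, adjusted p = 0.00423). AT1G68440, an uncharacterized protein, was at 87, 83.5, and 93.9 CPM in *phot1* and 87, 96.7, and 93.2 CPM in wild type after UV-C, and at 123, 105, and 101 CPM and 69.2, 69, and 68.7 CPM without UV-C (interaction −0.74, adjusted p = 0.00309). After UV-C the groups of AT1G68440 overlapped, whereas without it *phot1* was higher. Without wild-type UV-C replicate 1 or 2, without any single *phot1* library, or without non-treated wild-type replicate 2 or 3, the interaction called 0 genes.

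The called genes also differed in where the other UV-C treated mutants stood, all against the same 3 wild-type libraries. *FLR1* was at 22.1, 16.6, and 14.8 CPM in *phot2* and 10.8, 12.2, and 9.49 CPM in *phot1phot2*, and *MBP2* at 33, 17.3, and 31.4 CPM and 12, 14.2, and 9.02 CPM. *JAL23* was at 47, 26.8, and 38.8 CPM in *phot2* and 19.5, 23.9, and 18.4 CPM in *phot1phot2*. For these 3 genes the double mutant lay within the range of, or close to, the *phot1* values given above. *PGIP2* did not follow them, with 46, 28.6, and 29.3 CPM in *phot2* and 51.3, 43.3, and 29.4 CPM in *phot1phot2*. *NAP* was at 54.9, 40.9, and 40 CPM in *phot2* and 72.9, 77.7, and 77.8 CPM in *phot1phot2*, and *GolS2* at 12.2, 16.3, and 15.7 CPM and 20.3, 23.9, and 16.6 CPM. Both had their highest libraries in the double mutant.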

How the data were processed

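Whole read counts per gene were used as the authors deposited them, from RNA-Seq of Arabidopsis rosettes. The authors aligned reads with STAR 2.5.2b and counted them over Araport11 exons with featureCounts of Subread 1.6.2, per the file headers with no strand set and without multi-mapping reads. Tests ran in edgeR 4.0.16 (R 4.3.3, with limma 3.58.1), and DESeq2 1.42.0 served as an alternative.

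A minimum of 5 reads in 6 or more of the 24 libraries left 21366 genes, of which the 20094 protein-coding ones were tested. Libraries were scaled by TMM, and all 8 groups were fitted with estimateDisp, glmQLFit, and glmQLFTest; each SE is the fold change on the log2 scale divided by the root of F. The authors' likelihood ratio test, DESeq2, other filters, scalings, and sets of libraries, a replicate block, and leaving out each library were alternatives. With 3 against 3 libraries an exact permutation test cannot go under 0.1, so p-values come from these models. Replicates are separate biological samples, and none were copies (chi-square per degree of freedom 5.07 to 8.54 over genes averaging at least 20 reads). Same-numbered *phot1* and wild-type libraries did not deviate together after UV-C (r = −0.072, 0.109, and 0.028), so they were not paired. Without UV-C, libraries with the same replicate number in the labels gave 0.178, 0.077, and 0.24, and the other pairs −0.211 to 0.058. There the library names carry a shared number only for replicate 3 (r = 0.24). That comparison was not paired either, and its count in the groups compared was 12 without and 84 with a replicate block. The block used the replicate numbers of the labels, which are not shown to mark a shared batch. Floors of 3 reads and exact intervals of summed reads cover counting error only.

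Gene types and symbols came from RefSeq for TAIR10.1 (37517 of 37813 identifiers matched, 37469 with the same start and end). Promoters were 300 bases before the start, and motifs were sought on both strands. The fits were tested on simulated counts. Named are *PHOT1*, *PHOT2*, all called genes, genes the study names, per list those past the adjusted p or else the 2 with the smallest p, and genes past the adjusted p. The members and lists were chosen with earlier results of these data known.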

Additional observations from a re-analysis of the deposited data

Results flagged for a closer look

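The effect of UV-C differed between *phot1* and wild type at an adjusted p under 0.01 (edgeR interaction) for 3 genes. The interaction, as the UV-C effect in *phot1* minus that in wild type on the log2 scale, was 2.91 for AT2G01008 (adjusted p = 0.00423), −0.75 for *C/VIF2* (adjusted p = 0.00423), and −0.74 for AT1G68440 (adjusted p = 0.00309). After UV-C the groups of AT2G01008 and *C/VIF2* did not overlap, and without UV-C those of *C/VIF2* and AT1G68440 did not.

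Genes that are not protein-coding were outside the main test. When all 21366 genes of any type were tested, 31 were called after UV-C, against 19 of 20094 protein-coding genes (0.0946%) in the main test. Of the 31, 12 are not protein-coding, 6 higher and 6 lower in *phot1*. The higher ones had reads above the wild-type level in all 3 libraries. The pseudogene AT1G43590 had 610 reads summed over the *phot1* libraries, against 126 over the wild-type libraries. The pseudogene AT1G44510 had 93 reads, against 3 (ratio 30.3, 95% exact interval 10 to 150). The long noncoding RNA AT2G05705 had 139 reads, against 3 (ratio 45.3, interval 15.2 to 222). Both intervals cover the counting error of the summed reads only, not the spread between libraries. The noncoding RNA AT1G67105 had 182 reads, against 66, the pseudogene AT3G30122 had 439 reads, against 122, and the 5.8S ribosomal RNA gene AT2G01020 had 879 reads, against 227. All 6 were also higher without UV-C, for example 202 reads against 1 for AT1G44510 and 119 reads against 1 for AT2G05705.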

How the results depend on the processing

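After UV-C, 19 genes were called, and 63 with the likelihood ratio test and robust dispersions (22 higher and 41 lower, the 19 included), 31 with DESeq2 (16 of the 19; 3 others had no adjusted p), 31 with all gene types, 34 with a replicate block in the groups compared (16 of the 19), 5 with glmTreat, and 66 with no limit on the fold change. A replicate block in the fit of all 24 libraries gave 20 genes, the 19 included, and changed no call among them. Size factors by RLE, no filter, and a minimum of 20 reads gave 19, only the groups compared 19 (14 of them shared, without *GolS2*, *JAL23*, *TT7*, AT2G33175, and AT3G46990), and only the UV-C libraries 20. Leaving out single libraries gave 10 to 28. The interaction called 1 gene, and 48 with the likelihood ratio test, 16 with DESeq2, 2 with no filter, 2 with the replicate block, 0 with the replicate block in the groups compared, 0 with glmTreat, 3 with no limit on the fold change, and 0 to 3 without single libraries. Without UV-C, 25 genes were called, and 128 with the likelihood ratio test, 62 with DESeq2, 43 with all gene types, 12 in the groups compared, 84 there with the replicate block, 5 with glmTreat, 94 with no limit on the fold change, and 12 to 34 without single libraries.

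Of 1867 values of named genes under an alternative, 1786 kept direction and call, 51 lost a call, 27 gained one, and 3 changed sign, all of *ERD9* (−0.07 in the fit reported), which was 0.38 with the likelihood ratio test, 0.072 with the replicate block in the groups compared, and between −0.325 and 0.64 without single libraries (0.64 without wild-type UV-C replicate 2). The cause was not tested. Depth limits genes of a few reads, such as AT2G33175 and AT3G46990.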

Other observations

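On the lower side of the genes that are not protein-coding, 3 were nearly silent in *phot1* with and without UV-C. The transcribed pseudogene AT4G08093 had 1 read over the 3 UV-C treated *phot1* libraries, against 622 over wild type, and 7 reads, against 1413, without UV-C. The noncoding RNA AT2G01422 had 2 reads, against 188, after UV-C and 2 reads, against 1285, without it. The pseudogene AT5G33395 had 2 reads, against 50, after UV-C and 3 reads, against 48, without it. The other 3 lower ones were AT3G06355, a long noncoding RNA within the ribosomal DNA of chromosome 3 (4886 reads, against 10805), and the pseudogenes AT4G08145 (110 reads, against 583) and AT3G42927 (19 reads, against 82). The ribosomal gene AT2G01020 and the ribosomal transcript AT3G06355 thus went in opposite directions in the same libraries.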
